A study of Homo sapiens with 9 samples.

Results

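The genes described are those of the human deubiquitinase families, the enzymes that remove ubiquitin from other proteins. They were chosen by symbol from the protein-coding rows of the deposited table, chromosome Y left out, and number 90 of 36225 genes, of which 17322 are protein-coding. The rule itself used no measured value, but it was proposed with earlier results of these data known. By family, 50 are ubiquitin-specific proteases (USP, with CYLD counted here), 20 are copies of the USP17-like family, 11 are ovarian tumour proteases (OTU, with YOD1 and ZRANB1), 4 are ubiquitin C-terminal hydrolases (UCH, with BAP1), 3 are Josephin enzymes (JOSD1, JOSD2 and ATXN3) and 2 are JAMM metalloproteases (STAMBP and STAMBPL1). RNA was sequenced from RBE cells, a human cell line of bile duct cancer of the liver, after infection with a lentivirus that carried a short hairpin RNA against IDH1 (shIDH1), a short hairpin RNA against JOSD2 (shJOSD2) or a scrambled hairpin (control), with 3 libraries in each of the 3 groups. All 3 groups thus carry a lentiviral hairpin, 1 hairpin stands for each target, and neither the hairpin sequences nor the time after infection are used here. The series title links mutant IDH1 and JOSD2 with YAP and TAZ, the coactivators of the Hippo pathway.

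Ubiquitin is joined to proteins by E1, E2 and E3 enzymes in turn, as a single unit or as chains, and marks them for the proteasome, for lysosomal sorting or for a change of partner. Deubiquitinases trim or remove these marks. USP, OTU, UCH and Josephin enzymes are cysteine proteases, whereas JAMM enzymes use a zinc ion, and many members act only in complexes that steer them to a substrate. In cancers of the bile duct BAP1 and IDH1 are among the recurrently mutated genes.

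The promoters of 3 genes are shown, of which JOSD2 is a targeted gene. Among called members with FPKM ranges apart, USP1 was in the 8 largest falls of each knockdown against control. YOD1 was in the 8 largest rises of each. Each window runs from 250 bases before to 50 bases after the start that RefSeq gives for the gene (GRCh38.p14), written 5′ to 3′ on the gene's own strand: JOSD2 at chr19:50511142-50511441 on the minus strand, USP1 at chr1:62436145-62436444 on the plus strand and YOD1 at chr1:207051159-207051458 on the minus strand. Capitals mark CCAAT, the box bound by NF-Y, and GGAATG, the core bound by TEAD factors, on either strand, so that ATTGG and CATTCC are the same motifs read from the other strand.
JOSD2: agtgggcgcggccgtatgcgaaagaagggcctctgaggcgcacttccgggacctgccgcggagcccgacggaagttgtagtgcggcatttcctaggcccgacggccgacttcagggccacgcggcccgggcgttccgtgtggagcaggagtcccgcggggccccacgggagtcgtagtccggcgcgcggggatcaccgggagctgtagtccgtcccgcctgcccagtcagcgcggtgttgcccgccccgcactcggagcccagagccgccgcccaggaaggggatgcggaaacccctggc
USP1: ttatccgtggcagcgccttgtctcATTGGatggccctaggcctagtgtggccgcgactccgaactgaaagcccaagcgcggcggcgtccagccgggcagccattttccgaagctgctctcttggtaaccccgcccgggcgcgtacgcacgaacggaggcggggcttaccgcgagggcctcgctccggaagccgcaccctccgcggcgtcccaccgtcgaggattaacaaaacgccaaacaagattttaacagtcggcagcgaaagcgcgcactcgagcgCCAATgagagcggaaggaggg
YOD1: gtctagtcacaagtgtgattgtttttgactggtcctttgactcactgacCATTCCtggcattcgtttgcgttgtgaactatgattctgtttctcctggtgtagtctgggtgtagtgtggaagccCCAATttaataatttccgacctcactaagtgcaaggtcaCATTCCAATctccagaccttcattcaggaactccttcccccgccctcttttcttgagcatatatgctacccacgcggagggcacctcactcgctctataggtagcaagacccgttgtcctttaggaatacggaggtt
The JOSD2 window held none of the 4 motifs searched (CCAAT and also GGAATG, with TTTGAA of the cell cycle homology region and TTTGGCGC of E2F sites, both strands), with 72.3% G and C and 38 CpG. The USP1 window held 2 CCAAT boxes on opposite strands. The YOD1 window held 2 CCAAT boxes and 2 GGAATG cores, of which 1 box overlaps 1 core, and with 47.7% G and C and 9 CpG it was poorer in CpG than the other printed windows. It lies inside the YOD1 gene of the deposited table, whose 5′ end on the minus strand is at 207052980. Only 1 window per gene was taken, so the sequence at that end was not examined. RefSeq windows matched 54 of the 90 members. CCAAT was present in 29.6% of these 54 windows and in 35.7% of all 27305 RefSeq windows of the same length, GGAATG in 12.96% and 14.05%, TTTGAA in 7.41% and 15.4%, and TTTGGCGC in 1.85% and 0.659%. The members' windows had a median of 68.8% G and C and 31 CpG, against 58.3% and 14 over all windows. A match is a description of letters and was not tested for binding.

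Library totals lay between 66036276 and 71612713 deposited counts. Low counts gathered at 4 and 8, so a sequenced fragment seems to carry more than 1 count, and counting error exceeds what the counts alone would give. Nothing in the labels ties the libraries of a group to separate infections, so a p-value here measures nothing beyond the scatter of the 9 libraries, which could be technical. Of 9 biliary epithelial markers, 8 were at 1 FPKM or more in every library, and none of the 5 endothelial markers reached 1 FPKM in any. Per library 4 to 5 of 9 fibroblast, 2 to 3 of 6 leukocyte and 5 to 10 of 12 hepatocyte markers reached it. FPKM, which scales fragments to gene length and to the library's total, is used for levels, and fold changes come from counts scaled by TMM, which corrects for composition. TMM factors were 1.07 to 1.08 in shJOSD2 libraries, against 0.942 to 0.985 in control libraries, so for shJOSD2 the FPKM ratio stands above the fitted fold change.

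RBE cells carried RNA of most deubiquitinases at low to middling levels. In control libraries 15 of the 90 members had a mean of at least 10 FPKM, 46 lay between 1 and 10 FPKM and 29 were under 1 FPKM. The corresponding numbers were 13, 45 and 32 in shIDH1 libraries and 13, 45 and 32 in shJOSD2 libraries. In bulk RNA, fewer cells that express a gene and less RNA per cell cannot be told apart, and this holds for every level given here. Summed over all members, FPKM was 427 ± 6.62 in shIDH1 libraries, 437 ± 2.21 in shJOSD2 libraries and 493 ± 20.1 in control libraries (SD, n = 3 each), with both knockdown groups below every control library. USP22 alone averaged 18.9, 24.2 and 51.1 FPKM in the same order. In deposited counts the sum ran from 217106 to 223951 in shIDH1, 209221 to 218456 in shJOSD2 and 218218 to 242412 in control libraries. Both knockdown ranges of counts overlap that of control.

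The order of levels in control libraries began with USP22, the deubiquitinase of the SAGA coactivator complex, which had 51.1, 43.1 and 58.9 FPKM. USP5, which breaks down free ubiquitin chains, followed with 45.2, 48.3 and 49.8 FPKM, so that the ranges of these neighbours overlap. OTUB1, an abundant OTU enzyme that also restrains E2 enzymes without catalysis, had 21.5, 23.3 and 21.4 FPKM, clear of the genes on either side. BAP1, USP10, USP39 and USP14 stood next, below OTUB1, at means of 20.04, 19.2, 17.5 and 17.1 FPKM, and each overlapped the gene after it in range. In shIDH1 libraries USP22 averaged 18.9 ± 1.36 FPKM and USP5 40.3 ± 0.644 FPKM (SD, n = 3), so USP5 led the order there, as it did in shJOSD2 libraries with 40.1 ± 0.898 FPKM against 24.2 ± 1.05 FPKM for USP22.

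**Figure D1:**
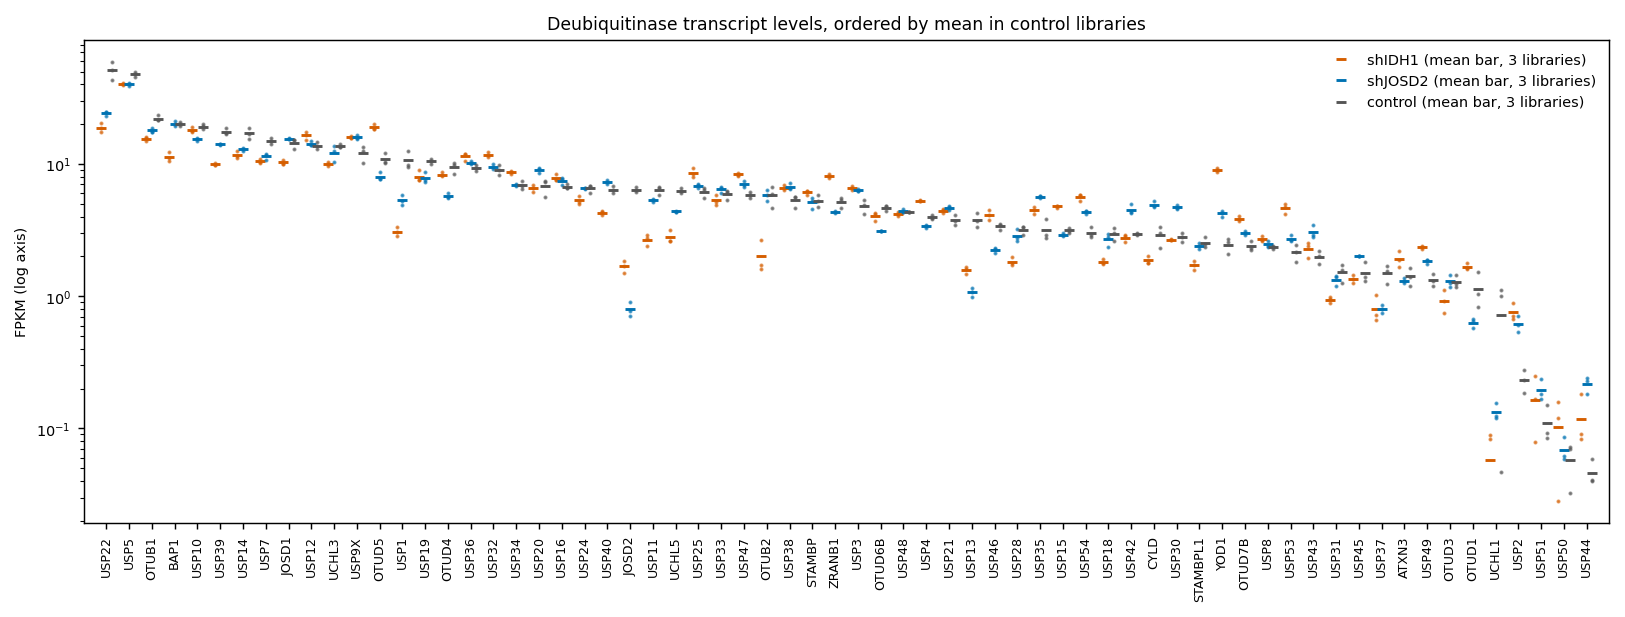
FPKM (vertical axis, log scale) of the 66 deubiquitinase genes that averaged at least 0.1 FPKM in a group (horizontal axis, from the highest mean in control libraries to the lowest), with a dot for each library and a bar for each group mean, for shIDH1, shJOSD2 and control; libraries at 0 are not drawn. USP22 and USP5 lie at the top left, and USP22 is lower in the knockdown groups (means of 18.9 FPKM in shIDH1 and 24.2 FPKM in shJOSD2) than in control (51.1 FPKM).

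At the other end, the 20 USP17L copies lie side by side on chromosome 4 between 9210657 and 9364721 (GRCh38) and held 0 to 6 counts per gene and library, at most 0.0536 FPKM. They are nearly identical to each other, so the reads assigned to one copy may come from another, and none was tested. OTUD7A held 0 counts in shIDH1, 12 in shJOSD2 and 8 in control libraries over each group, and USP26 held 0, 4 and 0, too few for a test. USP27X, USP6, USP50, USP51 and USP44 were tested at means under 0.22 FPKM. USP6 shares long stretches of sequence with USP32, and USP50 overlaps the far more abundant USP8, so their values are uncertain. In all, 68 of the 90 members passed the filter on low counts and were tested among 21492 genes.

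The targets were checked first. JOSD2 (ENSG00000161677, chromosome 19, 50505998 to 50511191, minus strand, GRCh38), whose promoter is printed above, had 0.771, 0.708 and 0.906 FPKM in shJOSD2 libraries and 6.66, 6.31 and 6.15 FPKM in control libraries. In shIDH1 libraries it had 1.51, 1.85 and 1.70 FPKM, so that all 3 groups lie apart, with shJOSD2 lowest. IDH1, no deubiquitinase, had 12.4, 13.1 and 12.3 FPKM in shIDH1 libraries, 32.7, 35.2 and 35.5 FPKM in shJOSD2 libraries and 45.6, 38.9 and 47.4 FPKM in control libraries. Exact two-sided permutation tests gave p = 0.1 for JOSD2 and IDH1 in each pair of groups, the smallest value that 3 against 3 libraries allow. Among members the JOSD2 fall in shIDH1 cells, 3.73-fold (adjusted p = 7.69e-07, edgeR, Benjamini-Hochberg), was the largest fitted fall of any member whose FPKM ranges were apart.

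The comparison of shIDH1 with control libraries asks how deubiquitinase RNA differs when IDH1 is depleted. Deubiquitinases moved in both directions: the rises were led by YOD1, USP2, USP44 and USP53, and the falls by JOSD2, USP1, OTUB2 and USP22. Of the 68 tested members 26 were higher and 27 were lower, together 77.9%, at an adjusted p under 0.05 (edgeR's quasi-likelihood test, Benjamini-Hochberg over the 21492 genes). Over all tested genes 24.5% were higher and 25.6% lower, together 50.1%. The members are more abundant than most tested genes, and among genes with a CPM (count scaled to library size) of at least 10 in 3 libraries 74.7% were called overall and 82.5% of members, 47 of 57, so at this level the members' share lay nearer the background. Of the 10531 genes at this level 3934 were higher and 3928 lower. The counts of families and role lists below stand beside shares over all tested genes, which are smaller than the shares at this level. For lists of abundant genes those shares are thus a low background. A change of at least 2-fold was called for 12 members (17.6%) and for 19.2% of all tested genes. FPKM ranges did not overlap for 54 members (79.4%), against 56.9% of all tested genes. The median log2 change was -0.08 over members and 0.01 over all tested genes.

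**Figure D2:**
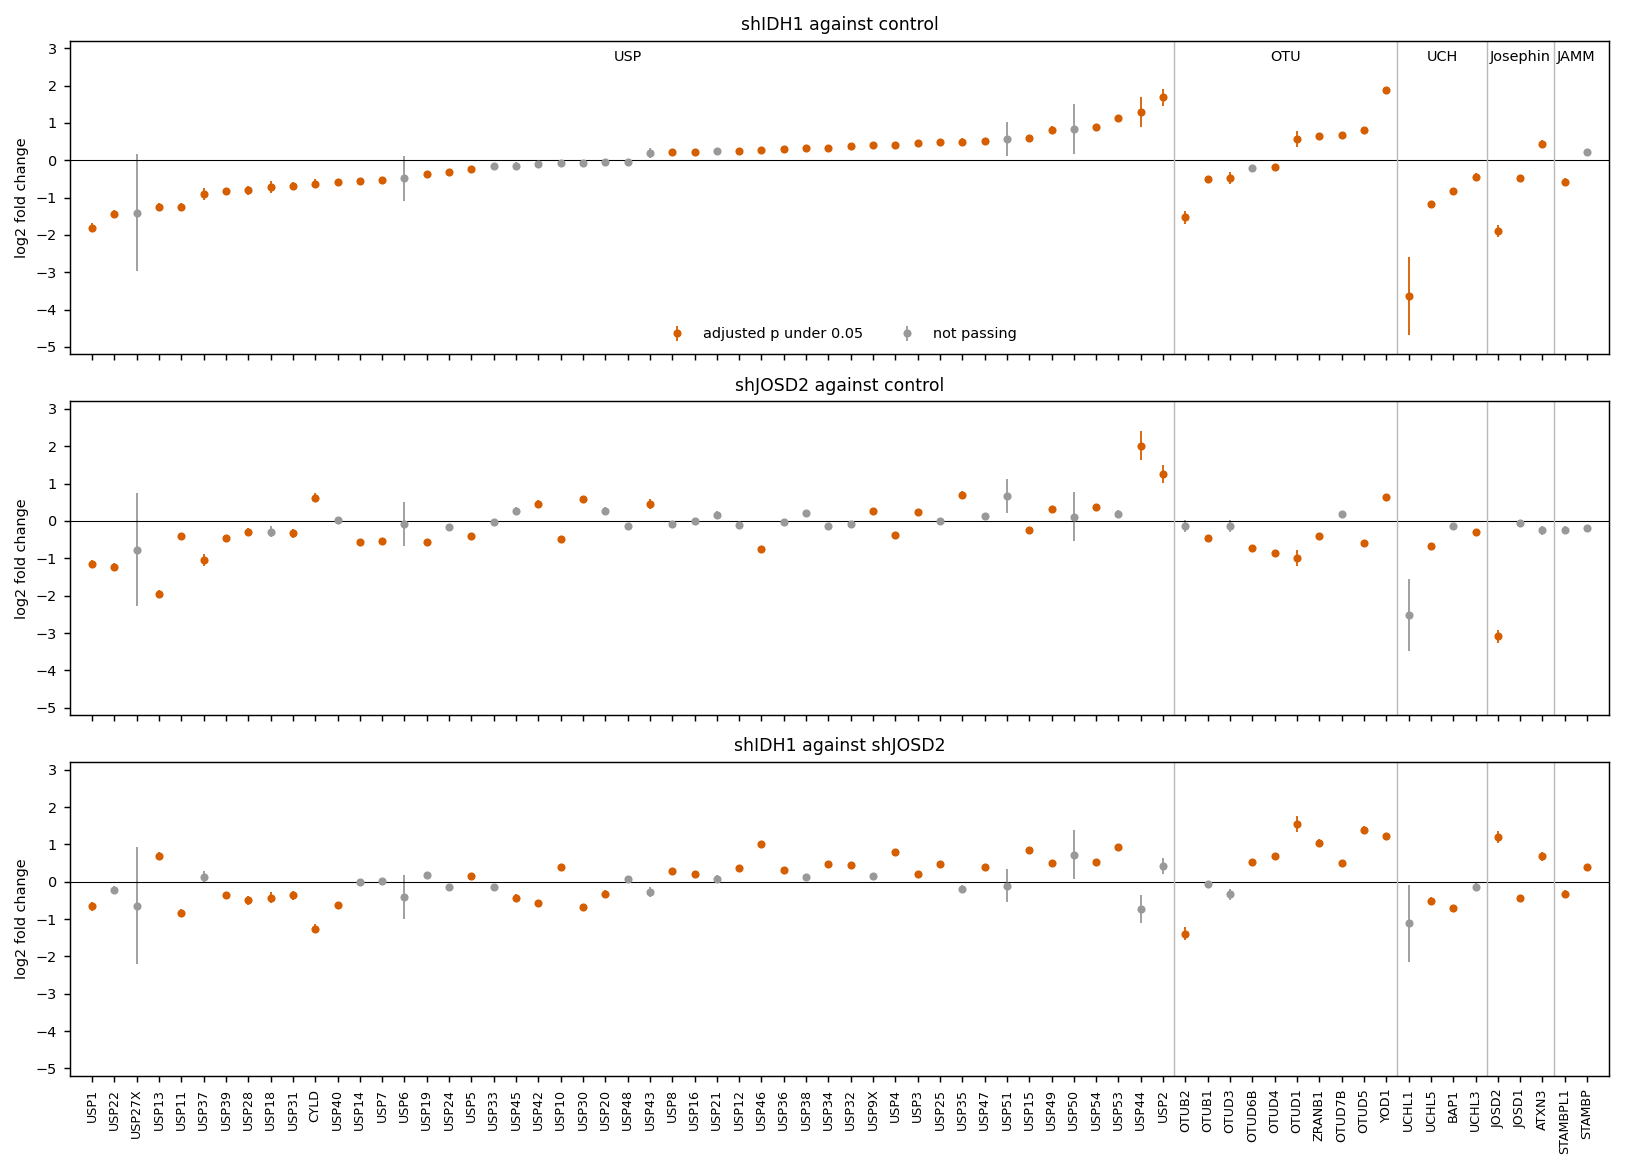
Fitted log2 fold change (vertical axis) with SE for each tested member (horizontal axis, grouped by family), for shIDH1 against control, shJOSD2 against control and shIDH1 against shJOSD2 from top to bottom, with called and uncalled genes marked. In the top panel the UCH genes all lie below 0 and USP genes lie on both sides, and JOSD2 is lowest of the middle panel at -3.09.

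In the small Josephin and UCH families most genes had less RNA in shIDH1 than in control cells. Of 3 Josephin genes 2 fell and 1 rose, beside 25.6% lower and 24.5% higher of all tested genes. JOSD1, the closest relative of JOSD2 and a membrane-linked enzyme, had 10.1, 10.8 and 10.02 FPKM in shIDH1 libraries and 15.2, 13.1 and 15.1 FPKM in control libraries, a fall of 0.49 ± 0.06 on the log2 scale (SE, adjusted p = 3.57e-05, edgeR, Benjamini-Hochberg). ATXN3, the polyglutamine protein of Machado-Joseph disease that edits chains for the segregase VCP, had 2.20, 1.87 and 1.67 FPKM in shIDH1 libraries and 1.63, 1.20 and 1.41 FPKM in control libraries. These ranges nearly touch, and the rise of 0.43 ± 0.12 (SE, adjusted p = 0.00892, edgeR, Benjamini-Hochberg) was called with each library left out in turn. Against control replicate 1 alone, 1 library whose spread is taken from the other groups, it was 0.26 and not called.

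All 4 UCH genes fell, where 25.6% of all tested genes did, and they differ in how far the libraries bear this out. BAP1, a nuclear tumour suppressor that removes ubiquitin from histone H2A, had 12.2, 10.6 and 11.1 FPKM in shIDH1 libraries, against 20.2, 20.6 and 19.3 FPKM in control libraries, and fell 1.78-fold (adjusted p = 4.05e-07, edgeR, Benjamini-Hochberg). UCHL5, which sits on the proteasome and on the INO80 remodelling complex, had 3.15, 2.60 and 2.62 FPKM in shIDH1 libraries and 6.03, 6.20 and 6.58 FPKM in control libraries, and fell 2.25-fold (adjusted p = 1.77e-07, edgeR, Benjamini-Hochberg). Both groups are well apart for these genes, as they are for UCHL3, a hydrolase of small ubiquitin adducts, at 9.96 ± 0.361 FPKM in shIDH1 and 13.7 ± 0.508 FPKM in control libraries (SD, n = 3 each). UCHL5 overlaps RO60 on the other strand, whose own log2 change was 0.55. UCHL3 shares bases with AL137782 on its own strand, whose log2 change was -0.28.

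UCHL1 (chromosome 4, 41256413 to 41268455, plus strand), best known from neurons, is the exception within the family. It had 0, 0.0891 and 0.0831 FPKM in shIDH1 libraries, 0.119, 0.123 and 0.156 FPKM in shJOSD2 libraries and 0.0471, 1.12 and 1.0 FPKM in control libraries. Control replicate 1 thus lies among the knockdown values, and the other controls stand far above them. UCHL1 was the only member of 64 compared whose control libraries differed by over 2-fold. The hepatocyte marker APOA1 shows the same split, with 2.91, 40.0 and 45.5 FPKM in control libraries, and the sum of 12 hepatocyte markers was 115 to 123 FPKM in shIDH1, 65.1 to 68.1 FPKM in shJOSD2 and 41.0, 94.1 and 99.1 FPKM in control libraries. Of the 12 markers 4 were called higher and 5 lower in shIDH1 than in control cells, and 4 higher and 4 lower in shJOSD2 than in control cells. ALB averaged 0.150, 0.175 and 0.923 FPKM in shIDH1, shJOSD2 and control libraries. The markers called higher in both knockdowns were SERPINA1 and the fibrinogen genes FGA, FGB and FGG, of which FGB averaged 42.9, 7.13 and 1.70 FPKM, FGA 14.1, 2.78 and 1.37 FPKM, FGG 8.93, 4.12 and 2.40 FPKM and SERPINA1 48.9, 46.3 and 35.1 FPKM in shIDH1, shJOSD2 and control libraries. In a library, 0 to 2 of the 12 markers were at 0. Against control replicate 1 alone the fitted UCHL1 change in shIDH1 cells was 0.27 in place of -3.64, and the part of hepatocyte-like RNA in it was not tested.

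Of the 11 members of DNA repair, replication and the cell cycle 3 were higher and 7 lower in shIDH1 cells, with a median log2 change of -0.80, beside 24.5% higher, 25.6% lower and a median of 0.01 over all tested genes. The lists of roles and families were not tested as groups. USP1, which with WDR48 deubiquitinates FANCD2 and PCNA, had 3.31, 3.03 and 2.83 FPKM in shIDH1 libraries and 9.57, 9.87 and 12.6 FPKM in control libraries. The groups lie far apart, a 3.50-fold fall (adjusted p = 7.3e-08, edgeR, Benjamini-Hochberg). USP13, reported to act in repair and in ER-associated degradation, had 1.59, 1.47 and 1.66 FPKM in shIDH1 libraries, against 3.71, 3.33 and 4.25 FPKM in control libraries, a fall of 1.25 ± 0.11 (SE, adjusted p = 8.46e-07, edgeR, Benjamini-Hochberg). USP11, a BRCA2-associated enzyme, averaged 2.68 ± 0.245 FPKM in shIDH1 and 6.34 ± 0.453 FPKM in control libraries (SD, n = 3 each). USP39, a splicing factor of the tri-snRNP that is inactive as a deubiquitinase, averaged 9.98 ± 0.154 and 17.5 ± 0.927 FPKM in these groups (SD, n = 3 each). USP37, which counters the APC/C on cyclin A, averaged 0.802 ± 0.191 FPKM in shIDH1 and 1.50 ± 0.230 FPKM in control libraries. It overlaps VIL1 on the other strand, whose log2 change was 0.39. USP39 overlaps C2orf68 and TMEM150A on the other strand, whose log2 changes were -0.28 and 0.20. USP28 and USP7, enzymes of the MYC and p53 circuits, fell by 0.80 and 0.52 on the log2 scale.

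USP44, a regulator of the mitotic checkpoint counted both here and among the chromatin enzymes, went the other way at a low level. It had 0.181, 0.0907 and 0.0830 FPKM in shIDH1 libraries and 0.0584, 0.0397 and 0.0408 FPKM in control libraries, and rose by 1.29 ± 0.39 (SE, adjusted p = 0.0156, edgeR, Benjamini-Hochberg). shIDH1 replicate 1 is well above the other shIDH1 libraries, and without it the change was 0.89 and not called. Nor was it called with limma on log2(FPKM + 1) or log2(FPKM + 0.1) (adjusted p = 0.0882 and 0.052). USP3 and USP16, histone H2A deubiquitinases, rose by 0.45 and 0.22.

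Among the 10 members that act on histones and chromatin 5 rose and 2 fell, beside 24.5% higher and 25.6% lower of all tested genes. USP22, the most abundant member in control cells, had 20.3, 18.8 and 17.6 FPKM in shIDH1 libraries and 51.1, 43.1 and 58.9 FPKM in control libraries, a 2.71-fold fall with no overlap (adjusted p = 6.58e-08, edgeR, Benjamini-Hochberg). Its close relatives USP27X and USP51, which can take its place on the same adaptor proteins, averaged 0.0175 and 0.165 FPKM in shIDH1 libraries and 0.0458 and 0.110 FPKM in control libraries and were not called. USP49, a histone H2B deubiquitinase, averaged 2.35 ± 0.0536 FPKM in shIDH1 and 1.33 ± 0.143 FPKM in control libraries (SD, n = 3 each) and rose by 0.82. It overlaps the more abundant AL365205, whose log2 change was -0.29. USP36, the nucleolar enzyme, rose by 0.30.

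OTU genes were split, with 5 higher and 4 lower of 10 tested, beside 24.5% higher and 25.6% lower of all tested genes. YOD1 (chromosome 1, 207043849 to 207052980, minus strand), which works with VCP at the endoplasmic reticulum and of which 1 RefSeq window is printed above, had 9.26, 8.98 and 8.70 FPKM in shIDH1 libraries and 2.69, 2.07 and 2.57 FPKM in control libraries. Every shIDH1 library was far above the highest control, and the fitted rise was 3.67-fold (adjusted p = 5.6e-09, edgeR, Benjamini-Hochberg). OTUB2, an enzyme of K63 chains reported to stabilize YAP and TAZ, had 2.68, 1.61 and 1.72 FPKM in shIDH1 libraries, against 6.76, 4.68 and 5.93 FPKM in control libraries, a fall of 1.53 ± 0.18 (SE, adjusted p = 1.27e-05, edgeR, Benjamini-Hochberg). OTUB2 overlaps DDX24 on the other strand, whose counts were 1117% of its own and whose log2 change was -0.75, so reads of these genes may not be told apart. OTUD7B (Cezanne), specific for K11 chains, averaged 3.87 ± 0.182 FPKM in shIDH1 and 2.40 ± 0.191 FPKM in control libraries (SD, n = 3 each) and rose by 0.69.

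The other rises came from USP enzymes of varied roles. USP2, a circadian gene with substrates that include MDM2 and cyclin D1, had 0.669, 0.884 and 0.706 FPKM in shIDH1 libraries, against 0.187, 0.278 and 0.231 FPKM in control libraries, a rise of 1.68 ± 0.23 (SE, adjusted p = 5.67e-05, edgeR, Benjamini-Hochberg). USP53, a tight junction protein with mutations in cholestasis, had 4.22, 5.01 and 4.76 FPKM in shIDH1 libraries and 2.45, 1.81 and 2.17 FPKM in control libraries, and rose 2.18-fold (adjusted p = 1.43e-06, edgeR, Benjamini-Hochberg). The ranges of both genes were apart, and the antisense RNA USP2-AS1, which overlaps USP2, had a log2 change of -0.38. USP54, the close homologue of USP53, averaged 5.63 ± 0.356 FPKM in shIDH1 and 3.01 ± 0.284 FPKM in control libraries (SD, n = 3 each), and rose by 0.90. Of 7 members of endosome sorting and receptor recycling 2 rose (USP8 by 0.22 and USP32 by 0.37) and STAMBPL1 fell, at 1.71 ± 0.132 FPKM in shIDH1 and 2.54 ± 0.223 FPKM in control libraries. STAMBPL1 overlaps the smooth muscle actin gene ACTA2, whose log2 change was 1.09. Of 7 members bound to the proteasome, ER or mitochondria 2 rose (YOD1 and ATXN3) and 4 fell, among them USP14, a deubiquitinase of the proteasome's regulatory particle, by 0.54. USP14 overlaps THOC1 on the other strand, whose log2 changes were -0.74 in shIDH1 and -0.28 in shJOSD2 cells. The counts of these role lists stand beside 24.5% higher and 25.6% lower of all tested genes.

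Of 7 members reported elsewhere to act on YAP or TAZ, JOSD2, OTUB2, USP1 and OTUB1 fell in shIDH1 cells and USP9X and USP47 rose. Over all tested genes 24.5% were higher and 25.6% lower in shIDH1 than in control cells. OTUB1 and USP47 overlap MACROD1 and DKK3 on the other strand. The log2 changes of MACROD1 and DKK3 were -0.62 and 1.68, so reads of these genes may not be told apart. USP9X, a large X-linked enzyme, had 15.7, 15.9 and 16.2 FPKM in shIDH1 libraries and 13.4, 10.1 and 12.6 FPKM in control libraries, a rise of 0.40 ± 0.08 (SE, adjusted p = 0.000761, edgeR, Benjamini-Hochberg). USP10, an enzyme of p53 and of stress granules, had 17.5, 19.1 and 17.9 FPKM in shIDH1 libraries and 18.4, 19.3 and 19.9 FPKM in control libraries, which overlap. Of 10 tested members of NF-kB and innate immune signalling 4 rose and 5 fell, among them USP18, the ISG15 protease, at 1.82 ± 0.0839 FPKM in shIDH1 and 2.98 ± 0.345 FPKM in control libraries (SD, n = 3 each). The closely related USP18 copy USP41 is not analysed here.

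**Figure D3:**
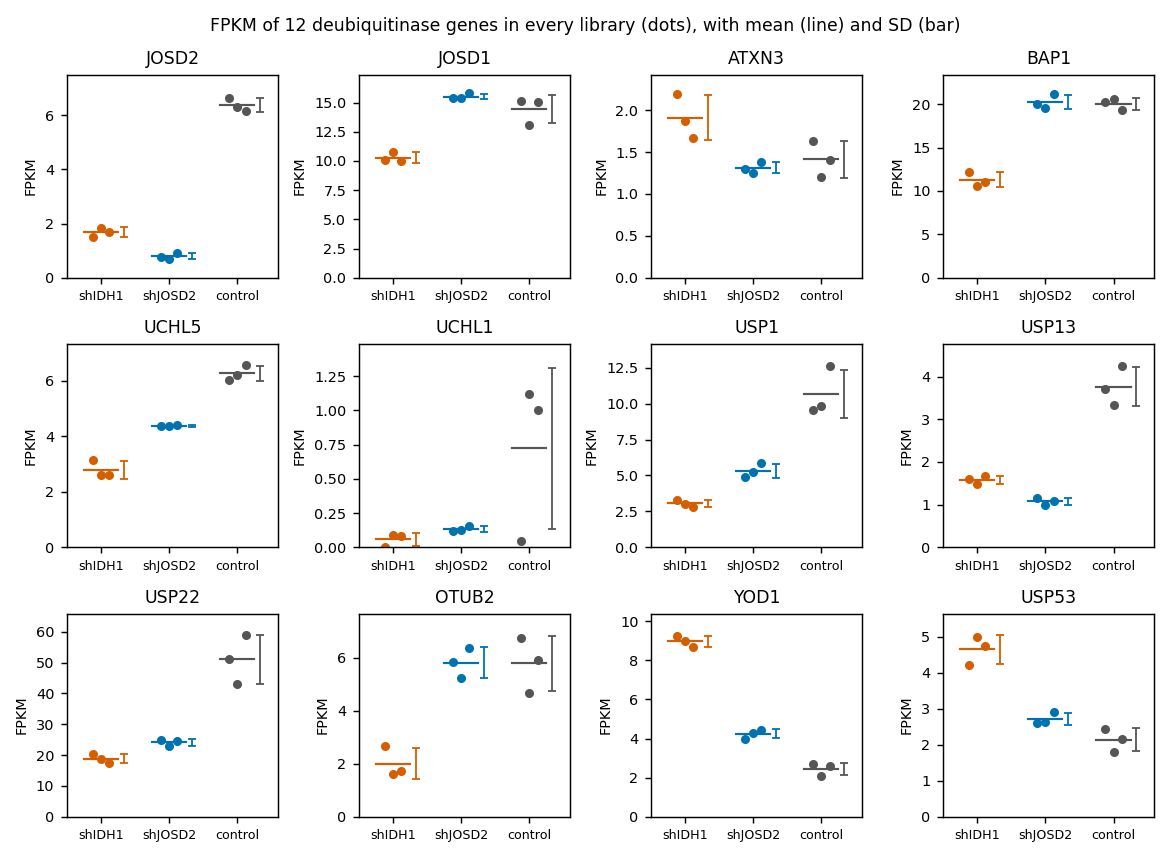
FPKM (vertical axis, from 0) of 12 deubiquitinase genes in each library (dots), with the group mean (line) and SD (bar), for shIDH1, shJOSD2 and control from left to right. USP1, USP13, USP22 and JOSD2 are lower in both knockdown groups than in every control library, YOD1 is higher, OTUB2 and BAP1 are low in shIDH1 libraries, and UCHL1 shows control replicate 1 at 0.0471 FPKM apart from the other controls.

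The comparison of shJOSD2 with control libraries asks which deubiquitinases differ when JOSD2 itself is depleted. Beside JOSD2, the falls were led by USP13, USP22, USP1 and USP37 and the rises by USP44, USP2, USP35 and YOD1. Of 68 tested members 12 were higher and 25 lower, together 54.4% (adjusted p under 0.05, edgeR, Benjamini-Hochberg over the 21492 genes), where 18.2% and 20.1% of all tested genes were higher and lower, together 38.3%. Among genes at 10 CPM or more in 3 libraries the called share was 60.5% overall and 64.9% of members, 37 of 57. Of the 10531 genes at this level 3188 were higher and 3178 lower, larger shares than over all tested genes. The split depends on the scaling. With library totals in place of TMM factors 20 members were higher, 48.8% of those called in place of 32.4%, and the median of all tested genes shifted from 0.03 to 0.18 on the log2 scale. At least 2-fold changes numbered 7 (10.3%), against 10.8% of all tested genes, and FPKM ranges were apart for 45 members (66.2%), against 51.7%. JOSD2, the target of the hairpin, is included in these counts and in the 25 lower members. The median log2 change was -0.13 over members and 0.03 over all tested genes.

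JOSD2 fell by 3.09 ± 0.17 (SE, adjusted p = 1.08e-07, edgeR, Benjamini-Hochberg), 8.52-fold, on 72 to 89 counts in shJOSD2 libraries. Its relatives were not called. JOSD1 had 15.4, 15.4 and 15.8 FPKM in shJOSD2 libraries and 15.2, 13.1 and 15.1 FPKM in control libraries, and its fitted change of -0.04 turns to 0.11 without TMM factors. ATXN3 had 1.301, 1.25 and 1.38 FPKM in shJOSD2 libraries and 1.63, 1.20 and 1.41 FPKM in control libraries, which overlap. Of the UCH genes UCHL5 fell, with 4.37, 4.36 and 4.41 FPKM in shJOSD2 libraries against 6.03, 6.20 and 6.58 FPKM in control libraries (1.59-fold, adjusted p = 4.55e-05, edgeR, Benjamini-Hochberg). BAP1, with 19.996, 19.6 and 21.2 FPKM in shJOSD2 libraries, overlapped the control values. UCHL3 was called at an adjusted p of 0.0329 (edgeR, Benjamini-Hochberg) with overlapping ranges, and 12 of the alternatives did not call it.

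Of the 11 members of DNA repair, replication and the cell cycle 2 were higher and 8 lower in shJOSD2 cells, with a median log2 change of -0.46, beside 18.2% higher, 20.1% lower and a median of 0.03 over all tested genes. USP13 (chromosome 3, 179653040 to 179789401, plus strand) had 1.16, 0.991 and 1.08 FPKM in shJOSD2 libraries, against 3.71, 3.33 and 4.25 FPKM in control libraries, a 3.87-fold fall (adjusted p = 1.2e-07, edgeR, Benjamini-Hochberg). USP1 had 4.90, 5.26 and 5.87 FPKM in shJOSD2 libraries and 9.57, 9.87 and 12.6 FPKM in control libraries, a 2.22-fold fall (adjusted p = 7.74e-06, edgeR, Benjamini-Hochberg). Both genes lie apart from control without overlap. USP37 averaged 0.805 ± 0.0523 FPKM in shJOSD2 and 1.50 ± 0.230 FPKM in control libraries, and USP10 averaged 15.3 ± 0.414 and 19.2 ± 0.758 FPKM in these groups (SD, n = 3 each). USP44 had 0.241, 0.181 and 0.229 FPKM in shJOSD2 libraries, and rose 4.04-fold against control on 70 to 96 counts per library, against 17 to 23 in control libraries (adjusted p = 0.0015, edgeR, Benjamini-Hochberg).

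Of the chromatin members 3 rose and 1 fell of 10, and the fall was that of USP22, with 24.9, 23.0 and 24.6 FPKM in shJOSD2 libraries against 51.1, 43.1 and 58.9 FPKM in control libraries (2.34-fold, adjusted p = 8.11e-07, edgeR, Benjamini-Hochberg). Of 10 tested OTU genes 1 rose and 6 fell, with a median log2 change of -0.43, beside the same 18.2% higher, 20.1% lower and median of 0.03 over all tested genes. OTUD1, an enzyme of K63 chains had 0.676, 0.646 and 0.571 FPKM in shJOSD2 libraries and 1.54, 1.05 and 0.827 FPKM in control libraries, a fall of 0.99 ± 0.22 (SE, adjusted p = 0.00329, edgeR, Benjamini-Hochberg). OTUD4, a phosphorylation-activated K63 enzyme, averaged 5.73 ± 0.246 FPKM in shJOSD2 and 9.45 ± 0.928 FPKM in control libraries, and OTUD6B, which is linked to proteasome assembly, averaged 3.12 ± 0.0166 and 4.67 ± 0.239 FPKM in these groups (SD, n = 3 each). OTUD4 overlaps ABCE1 and OTUD6B overlaps its antisense RNA, whose log2 changes were -0.08 and 0.08. YOD1 was the OTU gene that rose, with 3.98, 4.30 and 4.44 FPKM in shJOSD2 libraries against 2.69, 2.07 and 2.57 FPKM in control libraries (1.57-fold, adjusted p = 7.49e-05, edgeR, Benjamini-Hochberg). PFKFB2, which YOD1 overlaps, held counts equal to 14.9% of those of YOD1 and had log2 changes of -0.01 in shIDH1 and -0.36 in shJOSD2 cells.

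USP2 had 0.540, 0.712 and 0.602 FPKM in shJOSD2 libraries and 0.187, 0.278 and 0.231 FPKM in control libraries, a 2.39-fold rise with ranges apart (adjusted p = 0.000915, edgeR, Benjamini-Hochberg). USP35, a paralogue of the USP38 enzyme, averaged 5.67 ± 0.0996 FPKM in shJOSD2 and 3.16 ± 0.562 FPKM in control libraries (SD, n = 3 each), a rise of 0.70. USP30, which opposes Parkin on the mitochondrial outer membrane, had 4.58, 4.68 and 4.86 FPKM in shJOSD2 libraries and 3.02, 2.58 and 2.81 FPKM in control libraries, a rise of 0.60 ± 0.08 (SE, adjusted p = 0.000111, edgeR, Benjamini-Hochberg). USP42 and USP43 rose by 0.47 each, and USP43 was not called without control replicate 2 or without shJOSD2 replicate 2. Of the other proteasome and ER members USP14 and USP19 fell by 0.55 and 0.56. Of members reported to act on YAP or TAZ, JOSD2 (the target of the hairpin), USP1, USP10 and OTUB1 fell and USP9X rose by 0.26. OTUB2, with 5.84, 5.24 and 6.39 FPKM in shJOSD2 libraries, overlapped the control values. None of the 7 endosomal members passed the test (edgeR, Benjamini-Hochberg), with 3 at an unadjusted p under 0.05; DESeq2 called 0 and limma on log2(FPKM + 1) called 1. Of 10 tested NF-kB and innate immune members 1 rose and 4 fell, beside 18.2% higher and 20.1% lower of all tested genes.

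The direct comparison of shIDH1 with shJOSD2 libraries tests where the effects of the hairpins differ. OTU genes and JOSD2 led the members that were higher in shIDH1 cells, and OTUB2, CYLD, USP11 and BAP1 those that were lower. In this test 28 of 68 members were higher and 17 lower in shIDH1 cells, together 66.2% (adjusted p under 0.05, edgeR, Benjamini-Hochberg over the 21492 genes), where 20.8% and 24.0% of all tested genes were higher and lower, together 44.8%. Among genes at 10 CPM or more in 3 libraries the called share was 71.4% overall and 75.4% of members, 43 of 57. Of the 10531 genes at this level 3547 were higher and 3971 lower in shIDH1 than in shJOSD2 cells. Without TMM factors the higher calls made up 47.9% of the called members in place of 62.2%, and the median of all tested genes shifted from -0.06 to -0.21. At least 2-fold differences numbered 8 (11.8%), against 14.2% of all tested genes, and 51 members (75.0%) had FPKM ranges apart, against 58.4%. The OTU family gave 7 higher and 1 lower of 10, the UCH family 2 lower of 4, and the USP family 18 higher and 12 lower of 49.

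OTUD5 (chromosome X, 48922028 to 48958386, minus strand), a phosphorylation-dependent enzyme of innate immune and developmental signalling, had 18.6, 18.5 and 19.97 FPKM in shIDH1 libraries, 8.67, 7.67 and 7.67 FPKM in shJOSD2 libraries and 10.3, 12.04 and 10.2 FPKM in control libraries. Its control values thus lie between those of the hairpins with no overlap, and shIDH1 exceeded shJOSD2 2.62-fold (adjusted p = 1.65e-07, edgeR, Benjamini-Hochberg). OTUD1 had 1.60, 1.77 and 1.64 FPKM in shIDH1 libraries and 0.676, 0.646 and 0.571 FPKM in shJOSD2 libraries, a difference of 1.55 ± 0.22 (SE, adjusted p = 8.91e-05, edgeR, Benjamini-Hochberg). Its control libraries ran over 0.827 to 1.54 FPKM. The rise of OTUD1 over control in shIDH1 cells was called at an adjusted p of 0.0455 (edgeR, Benjamini-Hochberg) and was lost in 9 of the alternatives.

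ZRANB1 (Trabid), which cleaves K29 and K33 chains, had 8.16, 7.83 and 8.40 FPKM in shIDH1 libraries, 4.36, 4.42 and 4.25 FPKM in shJOSD2 libraries and 5.34, 5.56 and 4.66 FPKM in control libraries, and stood 2.07-fold higher in shIDH1 than in shJOSD2 cells (adjusted p = 6.23e-07, edgeR, Benjamini-Hochberg). It overlaps CTBP2 on the other strand, which held more counts and differed by 0.20 on the log2 scale. USP46, a partner of WDR48 and a close homologue of USP12, had 4.45, 4.13 and 3.77 FPKM in shIDH1 libraries, 2.33, 2.13 and 2.27 FPKM in shJOSD2 libraries and 3.47, 3.19 and 3.49 FPKM in control libraries, a 2.03-fold difference between the hairpins (adjusted p = 4.31e-07, edgeR, Benjamini-Hochberg). USP12 itself averaged 16.4 ± 1.20, 14.2 ± 0.524 and 13.8 ± 0.899 FPKM in shIDH1, shJOSD2 and control libraries (SD, n = 3 each). USP15 and USP4, paralogous enzymes of TGF-beta signalling, averaged 4.77 ± 0.0868 and 5.29 ± 0.0419 FPKM in shIDH1 libraries, 2.93 ± 0.0908 and 3.39 ± 0.0962 FPKM in shJOSD2 libraries and 3.14 ± 0.132 and 3.97 ± 0.152 FPKM in control libraries. The hairpins differed by 0.85 for USP15 and 0.79 for USP4. The lower USP15 value in shJOSD2 than in control cells had overlapping FPKM ranges. It was not called in 3 of the alternatives, among them the one without TMM factors.

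CYLD (chromosome 16, 50742050 to 50801935, plus strand), a tumour suppressor that removes K63 and linear chains in NF-kB signalling, had the opposite order. It had 1.79, 1.78 and 2.03 FPKM in shIDH1 libraries, 4.76, 4.83 and 5.22 FPKM in shJOSD2 libraries and 3.36, 2.30 and 3.01 FPKM in control libraries, so the 3 groups lie apart with shIDH1 lowest. CYLD stood 2.38-fold lower in shIDH1 than in shJOSD2 cells (adjusted p = 1.64e-06, edgeR, Benjamini-Hochberg), and each hairpin also passed the test against control, with log2 changes of -0.62 for shIDH1 and 0.63 for shJOSD2. SPATA2, the adaptor that brings CYLD to the linear chain ligase, averaged 2.72 ± 0.501 FPKM in shIDH1, 4.81 ± 0.181 FPKM in shJOSD2 and 3.97 ± 0.541 FPKM in control libraries (SD, n = 3 each), and was 1.60-fold lower in shIDH1 than in shJOSD2 cells (adjusted p = 0.00224, edgeR, Benjamini-Hochberg).

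OTUB2 was 2.63-fold lower in shIDH1 than in shJOSD2 cells (adjusted p = 3.49e-05, edgeR, Benjamini-Hochberg), with DDX24 lower by 0.93 on the log2 scale. BAP1 averaged 11.3 ± 0.835 FPKM in shIDH1 and 20.2 ± 0.823 FPKM in shJOSD2 libraries (SD, n = 3 each), a 1.62-fold difference (adjusted p = 2.71e-06, edgeR, Benjamini-Hochberg). Among genes lower in both knockdowns than in control, USP1 was lower still in shIDH1 than in shJOSD2 cells, by 0.66 ± 0.11, and USP13 was higher, by 0.70 ± 0.11 (SE; adjusted p = 0.000437 and 0.000178, edgeR, Benjamini-Hochberg). USP22, USP37, USP14 and USP7 did not pass the direct test, with differences of -0.21 ± 0.09, 0.14 ± 0.16, 0.00 ± 0.07 and 0.02 ± 0.06 (SE). JOSD2 and YOD1 were 2.29-fold and 2.34-fold higher in shIDH1 than in shJOSD2 cells.

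**Figure D4:**
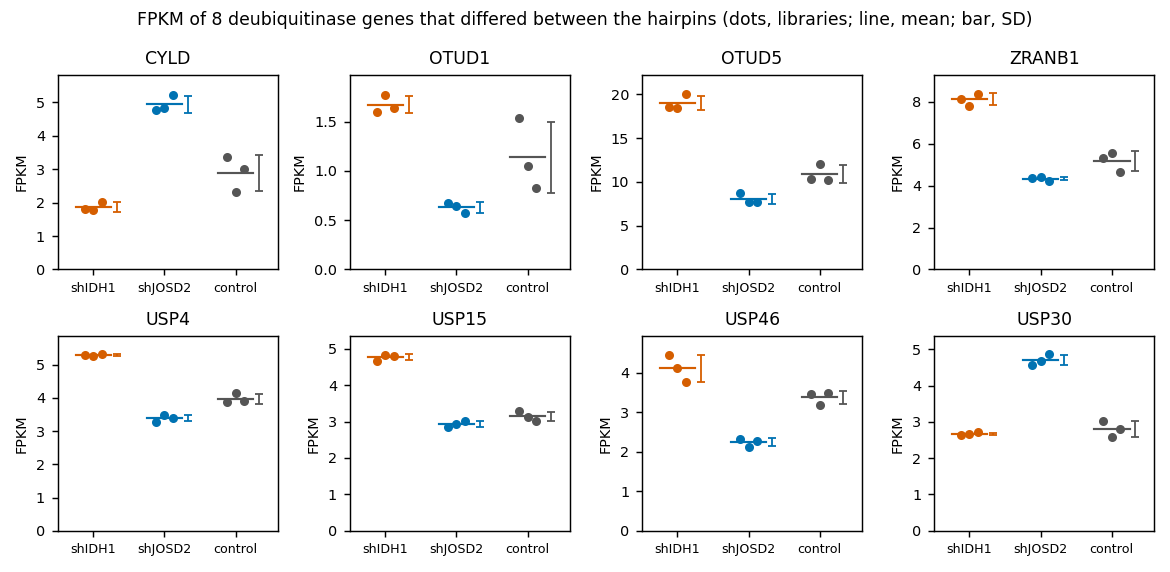
FPKM (vertical axis, from 0) of 8 deubiquitinase genes in each library (dots), with the group mean (line) and SD (bar), for shIDH1, shJOSD2 and control from left to right. OTUD5, ZRANB1, USP4 and USP46 show control between a higher shIDH1 and a lower shJOSD2 group, CYLD shows the reverse order, and USP30 is higher in shJOSD2 libraries alone.

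The other genes of the ubiquitin pathway were described from lists of known members, beside 24.5% higher and 25.6% lower of all tested genes in shIDH1 cells and 18.2% higher and 20.1% lower in shJOSD2 cells, with medians of 0.01 and 0.03. Of 18 deubiquitinases outside the name rule 4 were higher and 8 lower in shIDH1 than in control cells, and 2 were higher and 7 lower in shJOSD2 than in control cells, with median log2 changes of -0.18 and 0.03. OTULIN, the linear chain protease, averaged 3.25 ± 0.256 FPKM in shIDH1, 1.74 ± 0.131 FPKM in shJOSD2 and 3.70 ± 0.543 FPKM in control libraries (SD, n = 3 each) and fell 2.34-fold in shJOSD2 cells (adjusted p = 2.21e-06, edgeR, Benjamini-Hochberg). MINDY2, of the MINDY family, rose 2.25-fold in shIDH1 cells, and TNFAIP3 (A20), a brake on NF-kB, fell by 0.52 in shIDH1 and by 0.98 in shJOSD2 cells.

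Of 21 partners and cofactors of deubiquitinases 4 were higher and 11 lower in shIDH1 cells, and 1 was higher and 7 lower in shJOSD2 cells, with medians of -0.25 and -0.14. The 8 called in shJOSD2 cells are close to the 38.3% of all tested genes called there. Among genes at 10 CPM or more in 3 libraries 60.5% were called there. ATXN7L3, the adaptor that activates USP22, had 25.2, 27.2 and 26.8 FPKM in shIDH1 libraries, 10.8, 11.05 and 10.1 FPKM in shJOSD2 libraries and 15.8, 16.2 and 17.9 FPKM in control libraries. Its groups are all apart, and shIDH1 exceeded shJOSD2 2.74-fold (adjusted p = 1.15e-08, edgeR, Benjamini-Hochberg), whereas USP22 was low in both. G3BP1, the stress granule protein that binds USP10, averaged 7.42 ± 0.592 FPKM in shIDH1, 10.9 ± 0.212 FPKM in shJOSD2 and 18.8 ± 1.17 FPKM in control libraries (SD, n = 3 each). BABAM1, a scaffold of the BRCC3 complexes, fell 2.19-fold in shIDH1 cells and was not called in shJOSD2 cells (-0.12).

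E2 conjugating enzymes gave 10 higher and 10 lower of 32 in shIDH1 cells and 5 higher and 15 lower in shJOSD2 cells, with medians of 0.00 and -0.11. The shIDH1 counts thus lie near the shares over all tested genes. Among genes at 10 CPM or more in 3 libraries 3934 of 10531 were higher and 3928 lower in shIDH1 cells. UBE2C and UBE2S, which start and extend chains for the APC/C, fell furthest in shIDH1 cells: UBE2C had 6.92, 5.58 and 3.87 FPKM in shIDH1 libraries, 18.9, 21.6 and 21.8 FPKM in shJOSD2 libraries and 53.0, 67.8 and 75.3 FPKM in control libraries. UBE2S averaged 7.89 ± 1.10, 27.6 ± 0.440 and 57.2 ± 5.88 FPKM in the same order, and UBE2T, the E2 enzyme of the Fanconi pathway in which USP1 acts, averaged 4.50 ± 1.17, 5.73 ± 0.371 and 22.2 ± 2.14 FPKM (SD, n = 3 each). UBE2V1, the cofactor of UBE2N in K63 chain building, fell 2.47-fold in shJOSD2 cells (adjusted p = 1.23e-07, edgeR, Benjamini-Hochberg). Of 10 ubiquitin genes and E1 enzymes 1 was higher and 5 lower in shIDH1 cells, and 4 were lower in shJOSD2 cells. Among them SAE1, a subunit of the SUMO E1 enzyme, averaged 26.8 ± 1.61 FPKM in shIDH1, 40.3 ± 0.924 FPKM in shJOSD2 and 57.8 ± 2.75 FPKM in control libraries. Of 7 SUMO and NEDD8 proteases 3 were higher and 2 lower in shIDH1 cells, and 1 was higher and 2 lower in shJOSD2 cells, with SENP3, a nucleolar SUMO protease, lower in both.

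Gene overlap touches a part of the members, since the libraries mark strand but the strand setting of the counting is not given in the sources used here. For 20 of the 68 tested members another gene with at least 10% of their counts shares bases with them, and for 18 of these the other gene lies on the opposite strand. Those with at least 10% are STAMBPL1, OTUB1, OTUB2, OTUD4, OTUD6B, YOD1, ZRANB1, UCHL3, UCHL5, USP2, USP4, USP6, USP14, USP20, USP34, USP37, USP39, USP47, USP49 and USP50. JOSD2, USP1, USP13, USP22, OTUD5, OTUD1, CYLD and BAP1 are not among them. The longest transcript of tested members had a median length of 4820 nucleotides and 45.1% G and C, against 2892 nucleotides and 48.6% over all tested genes with a value.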

How the data were processed

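Poly(A) RNA was sequenced in 9 libraries of RBE cells, 3 each for shIDH1, shJOSD2 and control. Per the submitters' processing notes, reads were handled with StringTie 1.3.4d, HISAT2 2.0.4, cutadapt 1.9 and UMI-tools on GRCh38; which tool counted and with which strand setting is not given in the sources used here, nor whether the molecular identifiers were counted. The authors deposited a whole-number count and an FPKM value per gene and library, per the file headers; neither was altered by further scaling before testing. Totals were 66036276 to 71612713 counts per library. Pairs of replicates differed beyond sampling noise, also with counts divided by 4 to allow for the gathering at multiples of 4 (chi-square per degree of freedom 3.86 to 11.03 on the divided counts, where sampling noise gives about 1), so none was counted as a repeat.

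Counts of 21492 genes kept by filterByExpr were fitted in edgeR 4.0.16 (R 4.3.3) with TMM factors and a mean per group over all 9 libraries, and tested with its quasi-likelihood test at a Benjamini-Hochberg adjusted p of 0.05. A standard error is the size of the log2 change divided by the root of the F statistic. The script was also run on simulated counts in which only a small part of the genes changed. Far more genes were called here, so that run does not test the scaling for these data. FPKM of IDH1 and JOSD2 was compared by exact permutation. Alternatives were DESeq2 1.42.0, RLE or no scaling factors, other filters, limma 3.58.1 on log2(FPKM + 1) and log2(FPKM + 0.1), counts divided by 4, a replicate block, the compared groups alone, control replicate 1 alone, and each library left out.

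The members, gene lists and rules were chosen with earlier results of these data known. Genes named are the 8 largest called rises and falls per comparison with ranges apart, the 5 most abundant members in control, the Josephin and UCH families, CYLD, members reported to act on YAP or TAZ, members called in opposite directions by the hairpins, and up to 4 called genes per other list; further members named for their role, their overlap or their low level were chosen after their values were seen. Of the planned steps, printing of proteins and a ranking of genes by likeness to JOSD2 were left out, the second because the libraries form 3 separate groups. Markers of 5 cell types were examined: beside those in the report, 9 fibroblast markers summed to 42.9 to 45.6 FPKM in shIDH1, 45.0 to 46.2 in shJOSD2 and 20.3 to 23.1 in control libraries, mostly ACTA2 (27.3, 28.2 and 12.8 FPKM on average), and 6 leukocyte markers to 25.5 to 28.9, 24.4 to 32.4 and 31.7 to 39.1 FPKM, mostly CD68. Of 7 tested fibroblast markers 5 were higher and 0 lower in shIDH1 than in control cells, and 3 higher and 0 lower in shJOSD2 cells. Of 5 tested leukocyte markers 0 were higher and 1 lower in each knockdown. The part of these markers in the results was not tested. Promoter windows came from RefSeq (GRCh38.p14), transcript lengths from GENCODE, and figures from matplotlib 3.10.9.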

Additional observations from a re-analysis of the deposited data

How the results depend on the processing

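Over all alternatives, the members called higher numbered 19 to 28 for shIDH1 against control (26 in the report), 7 to 20 for shJOSD2 against control (12) and 22 to 29 for shIDH1 against shJOSD2 (28), and those called lower 22 to 27 (27), 20 to 28 (25) and 14 to 26 (17). The members higher in shJOSD2 than in control cells numbered 20 without TMM factors, 19 with limma on log2(FPKM + 1), 19 with limma on log2(FPKM + 0.1) and 7 against control replicate 1 alone. The members lower in shIDH1 than in shJOSD2 cells numbered 26 with limma on log2(FPKM + 1). The scalings without TMM factors, FPKM included, shift shJOSD2 values upward by construction. With each library left out in turn, the counts ran from 23 to 27 higher and 25 to 27 lower for shIDH1 against control, from 9 to 15 higher and 22 to 25 lower for shJOSD2 against control, and from 25 to 26 higher and 14 to 16 lower for shIDH1 against shJOSD2.

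Same-numbered libraries of different groups did not deviate together (r from -0.018 to 0.038), so no shared effect of the replicate number was seen. Whether same-numbered libraries were infected or prepared together cannot be told from this. With the replicate block the calls were 26 higher and 27 lower, 12 higher and 24 lower, and 27 higher and 16 lower in the 3 comparisons.

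Of the values of single named genes under the alternatives, 1489 kept direction and side of the threshold, 47 lost the call, 20 gained one and 14 changed sign; all sign changes were small or in genes not called, except UCHL1. Against control replicate 1 alone the log2 change was 0.27 for UCHL1 and 0.018 for USP10 in shIDH1 cells, and 1.38 for UCHL1 in shJOSD2 cells. For shJOSD2 against control, without TMM factors, with limma on log2(FPKM + 1) and with limma on log2(FPKM + 0.1), BAP1 gave 0.020, 0.013 and 0.014, JOSD1 gave 0.11, 0.10 and 0.11, and OTUB2 gave 0.016, 0.015 and 0.019. JOSD1 gave 0.041 with the filter at 10 CPM, and USP9X gave -0.0052 between the hairpins without TMM factors. The cause was not tested. Control replicate 1 alone is an arm of 1 library, assumed to vary like the other groups. Lost calls also touched USP44, USP46 and USP5 in shIDH1 cells with control replicate 1 alone, USP44 also with both limma settings and without shIDH1 replicate 1, USP9X in shJOSD2 cells without shJOSD2 replicate 2 and USP5 between the hairpins in 11 alternatives. Genes under about 0.2 FPKM rest on too few fragments to show small differences, and a deposited count may stand for less than 1 fragment.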
